A study of Mus musculus with 6 samples.

Results

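The 9 genes described here supply, balance and break down the deoxynucleotides that cells use to copy DNA. They are Rrm1, Rrm2, Rrm2b, Tk1, Tyms, Dck, Dut, Samhd1 and Dctpp1, chosen by symbol from the table of gene counts, which held 11922 genes. All 9 were in the table and all 9 passed the filter on low counts. CD8+ T cells were taken from the spleens of C57BL6/J mice with magnetic beads and activated with beads carrying anti-CD3 and anti-CD28, in recombinant human interleukin-2 at 100 units per ml. Both groups had this activation and cytokine, and they differed in the addition of water as vehicle or of aminooxyacetic acid (AOA) at 0.25 mM, an inhibitor of enzymes that need vitamin B6 as cofactor. Activation lasted 72 hours, the cells were then expanded for 4 days with the same addition, and RNA was taken on day 7. Mice 1, 2 and 3 each gave a vehicle culture and an AOA culture, so that there were 3 libraries per group, numbered by mouse. The cells were a polyclonal mixture in bulk culture, 1 dose and 1 time were sequenced, and the age of the mice is not given in the labels.

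Ribonucleotide reductase converts ribonucleotides to deoxynucleotides and is built from a large catalytic subunit and a small radical-carrying subunit. The usual small subunit is made in S phase, whereas an alternative small subunit serves DNA repair and the mitochondrial genome outside S phase. Thymidine nucleotides have a branch of their own, in which dUTP is cut to dUMP and methylated to dTMP, while salvage kinases recover deoxynucleosides from outside the cell. SAMHD1 does the reverse of synthesis by cleaving deoxynucleoside triphosphates, and it is abundant in cells that are not dividing.

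Total counts were 12881962 to 18934869 in the vehicle libraries and 18696114 to 21997078 in the AOA libraries. The 10 CD8 T cell markers listed for the check of the label were all present and summed to 5969 to 6784 CPM (counts scaled to the library size after TMM normalisation) with vehicle and 7541 to 8302 CPM with AOA. Of these 10, Cd8a, Cd8b1 and Thy1 were called higher, Cd2, Cd5 and Zap70 were called lower and 4 were not called, with a median log2 fold change of -0.20. Markers of other cells were lower than these and differed between the groups. The 4 CD4 T cell markers summed to 158 to 210 CPM with vehicle and 33.0 to 54.3 CPM with AOA, and 3 of 4 NK cell markers to 24.2 to 138 and 4.34 to 13.4 CPM. For 5 of 6 B cell markers the sums were 13.9 to 18.4 and 23.1 to 30.9 CPM. The 5 erythroid markers were not analysed here. Vehicle replicate 2 lay apart from the other vehicle libraries on the second principal component, at -44.2 against 21.9 and 19.4. In bulk RNA, fewer cells of a type and less RNA per cell cannot be told apart.

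Of the 9 genes, 7 were higher with AOA, 1 (Samhd1) was lower and 1 (Rrm2b) was not called, by edgeR's quasi-likelihood test at an adjusted p of 0.05 over 11759 genes. Of all genes tested, 53% were called, 26.2% as higher and 26.8% as lower, so a call in itself was common. The groups did not overlap in CPM for 8 of the 9 genes, with 7 wholly above and 1 wholly below, a property of 62.1% of all genes (31.0% above and 31.1% below). The median log2 fold change of the 9 was 2.32, and that of all tested genes was -0.02. The number called was 8 in each alternative fit and with each library left out.

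**Figure D1:**
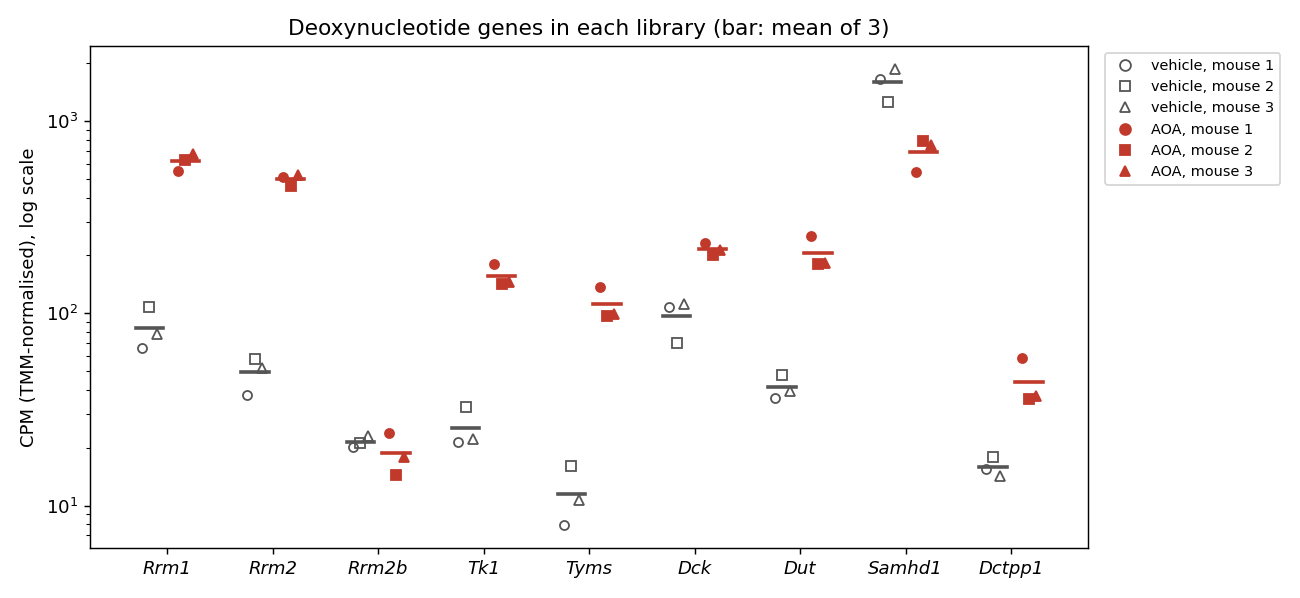
Level of each of the 9 genes in each library, in TMM-normalised CPM on a log axis, with open grey symbols for vehicle, filled red symbols for AOA, a symbol shape for each mouse and a bar for the mean of 3. The AOA libraries lie above the vehicle libraries for 7 genes, below them for Samhd1, and overlap them for Rrm2b.

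Rrm1 (Entrez gene 20133, GRCm38 chromosome 7 from 102441695 to 102469771, plus strand) encodes the large subunit of ribonucleotide reductase. Its level was 66.3, 108 and 78.3 CPM in vehicle replicates 1, 2 and 3, and 550, 628 and 674 CPM in AOA replicates 1, 2 and 3. The lowest AOA library was 5.09 times the highest vehicle library. The log2 fold change was 2.87 (standard error, SE, of 0.21; 95% interval 2.40 to 3.34; edgeR adjusted p = 1.79e-05), a 7.33-fold rise. Among all tested genes ranked by CPM per kilobase, Rrm1 moved from rank 3627 with vehicle to rank 454 with AOA.

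Rrm2 (Entrez gene 20135, chromosome 12 from 24708241 to 24714146, plus strand) encodes the S phase small subunit. Vehicle libraries had 37.7, 57.8 and 52.1 CPM and AOA libraries 509, 461 and 523 CPM. The AOA libraries differed from each other by at most 1.13-fold, and every one of them lay at least 7.98 times above every vehicle library. Rrm2 had the highest estimate of the 9 genes, a rise of 3.34 on the log2 scale (SE 0.19, 95% interval 2.91 to 3.77, edgeR adjusted p = 1.21e-05), or 10.1-fold. Tyms, at 3.26, was not separated from it and was the higher of the pair without vehicle replicate 2 (3.60 against 3.50) and without AOA replicate 3 (3.34 against 3.30). Among all tested genes, Rrm2 was ranked 56 in order of log2 fold change from the highest.

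Rrm2b (Entrez gene 382985, chromosome 15 from 37923952 to 37961318, minus strand) encodes the alternative small subunit and is known as a target of p53. Its level was 20.2, 21.2 and 23.0 CPM with vehicle and 23.8, 14.5 and 17.9 CPM with AOA. AOA replicate 1 was above all vehicle libraries and the other two were below them, so the groups overlapped. Its log2 fold change was -0.20 (SE 0.20, 95% interval -0.64 to 0.25, edgeR adjusted p = 0.426). The interval lies below those of the 7 genes called higher. Without AOA replicate 1 the value was -0.40 (edgeR adjusted p = 0.0740), and without AOA replicate 2 it was -0.04 (adjusted p = 0.896).

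The balance between the small subunits differed between the groups, and because the genes differ in length it was also taken per kilobase. Of the counts of Rrm2 and Rrm2b together, Rrm2b took 34.8% (95% Wilson interval 31.5 to 38.4), 26.8% (24.4 to 29.3) and 30.6% (28.3 to 33.1) in vehicle replicates 1, 2 and 3. In AOA replicates 1, 2 and 3 it took 4.46% (4.10 to 4.85), 3.04% (2.71 to 3.42) and 3.31% (2.99 to 3.66). These intervals cover counting error only. Per kilobase, Rrm2b made up 15.0% to 20.5% of small-subunit RNA with vehicle and 1.49% to 2.20% with AOA. The log2 ratio of Rrm2 to Rrm2b within a library was 1.17 ± 0.27 (SD, n = 3) with vehicle and 4.75 ± 0.30 (SD, n = 3) with AOA. It changed by 3.58, a 12.0-fold shift, with the groups apart (exact permutation test, two-sided, p = 0.1, the smallest that 3 against 3 allows).

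Both the large and the S phase small subunit rose, and the 95% intervals of their log2 fold changes overlapped. The log2 ratio of Rrm2 to Rrm1 was -0.81, -0.90 and -0.59 with vehicle and -0.11, -0.45 and -0.37 with AOA, so the AOA libraries lay above. The change was 0.46 on the log2 scale (exact permutation p = 0.1). Per kilobase, small-subunit RNA of both kinds was 1.15 to 1.48 times the large-subunit RNA with vehicle and 1.37 to 1.74 times with AOA, and these ranges overlapped.

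The sequences just upstream of Rrm1, Rrm2 and Tyms, the genes with the highest log2 fold changes of the 9, are shown because they rose together. They are the 5′ to 3′ gene strand of RefSeq's GRCm38.p6 promoters, without bases that GENCODE places inside the gene, at chr7:102441445-102441694 (plus strand), chr12:24708004-24708240 (plus strand) and chr5:30073626-30073875 (minus strand). Capitals mark the motifs searched, on either strand, which were the E2F words TTCCCGC and TTGGCGC, the CCAAT box bound by NF-Y, and the cell cycle homology region TTTGAA.
Rrm1: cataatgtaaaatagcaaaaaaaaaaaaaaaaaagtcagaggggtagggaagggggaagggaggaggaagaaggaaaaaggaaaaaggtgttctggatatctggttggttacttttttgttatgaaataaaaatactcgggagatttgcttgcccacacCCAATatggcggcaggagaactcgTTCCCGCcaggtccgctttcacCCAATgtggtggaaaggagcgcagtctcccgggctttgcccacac
Rrm2: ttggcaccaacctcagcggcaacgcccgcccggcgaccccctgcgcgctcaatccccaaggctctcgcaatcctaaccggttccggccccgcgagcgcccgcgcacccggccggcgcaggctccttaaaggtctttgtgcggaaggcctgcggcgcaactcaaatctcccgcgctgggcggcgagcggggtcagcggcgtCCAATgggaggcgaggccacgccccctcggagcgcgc
Tyms: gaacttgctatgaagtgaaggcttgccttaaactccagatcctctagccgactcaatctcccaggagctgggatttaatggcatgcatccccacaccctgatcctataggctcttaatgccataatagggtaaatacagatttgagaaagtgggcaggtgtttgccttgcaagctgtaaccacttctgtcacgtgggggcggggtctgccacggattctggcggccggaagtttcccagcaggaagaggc

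In the 250 bases upstream of the RefSeq start, with the base before the start counted as -1, Rrm1 held CCAAT at -91 and -45 with TTCCCGC between them at -67, and Rrm2 held CCAAT at -50. The window of Tyms held none of these words. RefSeq promoters were matched for 8 of the 9 genes, all but Rrm2b. Of these 8, 3 held CCAAT (Rrm1, Rrm2 and Dctpp1), against 33.8% of all 32851 promoter windows of this length. TTCCCGC was in 1 of 8 (3.82% of all windows), TTGGCGC in 0 of 8 (1.97%) and TTTGAA in 1 of 8, Dck (16.0%). A match describes the letters of these windows and not a bound site.

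Tyms (Entrez gene 22171, chromosome 5 from 30058202 to 30073617, minus strand) encodes thymidylate synthase, which methylates dUMP to dTMP. Its level was 7.94, 16.0 and 10.6 CPM with vehicle and 137, 97.1 and 98.9 CPM with AOA. Replicate 2 was the highest of the vehicle libraries and replicate 1 the highest of the AOA libraries, yet the lowest AOA value was 6.06 times the highest vehicle value. On the log2 scale the change was 3.26 (SE 0.26, 95% interval 2.67 to 3.85, edgeR adjusted p = 2.73e-05), or 9.59-fold. Taken mouse by mouse as a difference of log2 CPM, the rise was 4.09, 2.59 and 3.20 in mice 1, 2 and 3, the widest spread of the 9 genes (SD 0.76, n = 3).

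Dut (Entrez gene 110074, chromosome 2 from 125247190 to 125258608, plus strand) encodes dUTPase, which supplies dUMP to thymidylate synthase and keeps uracil out of DNA. Vehicle libraries had 36.1, 47.9 and 39.5 CPM and AOA libraries 254, 180 and 183 CPM, with no overlap. Dut rose by 2.32 on the log2 scale (SE 0.18, edgeR adjusted p = 2.59e-05), or 4.99-fold. The log2 ratio of Tyms to Dut was -2.17, -1.57 and -1.88 with vehicle and -0.89 in each AOA library (SD 0.0026, n = 3), so Tyms gained 0.99 on Dut (exact permutation p = 0.1).

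Tk1 (Entrez gene 21877, chromosome 11 from 117815526 to 117826092, minus strand) encodes the cytosolic thymidine kinase, a salvage enzyme of dividing cells. Its level was 21.5, 32.5 and 22.3 CPM with vehicle and 181, 141 and 145 CPM with AOA. Every AOA library was at least 4.34 times above every vehicle library. The rise was 2.61 on the log2 scale (SE 0.20, edgeR adjusted p = 2.02e-05), or 6.11-fold.

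Dck (Entrez gene 13178, chromosome 5 from 88764996 to 88783281, plus strand) encodes deoxycytidine kinase, which salvages deoxycytidine and purine deoxynucleosides and is characteristic of lymphoid cells. Vehicle libraries had 107, 70.2 and 112 CPM and AOA libraries 231, 201 and 214 CPM. The groups did not overlap, and vehicle replicate 2 was the lowest library, whereas it was the highest vehicle library for Rrm1, Rrm2, Tk1, Tyms, Dut and Dctpp1. Dck rose by 1.16 on the log2 scale (SE 0.19, edgeR adjusted p = 8.96e-04), or 2.23-fold, the lowest estimate of the 7 genes that rose. The log2 ratio of Tk1 to Dck changed from -1.92 ± 0.70 (SD, n = 3) to -0.48 ± 0.11 (SD, n = 3), by 1.44 (exact permutation p = 0.1). Without vehicle replicate 2 the change was 1.85.

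**Figure D2:**
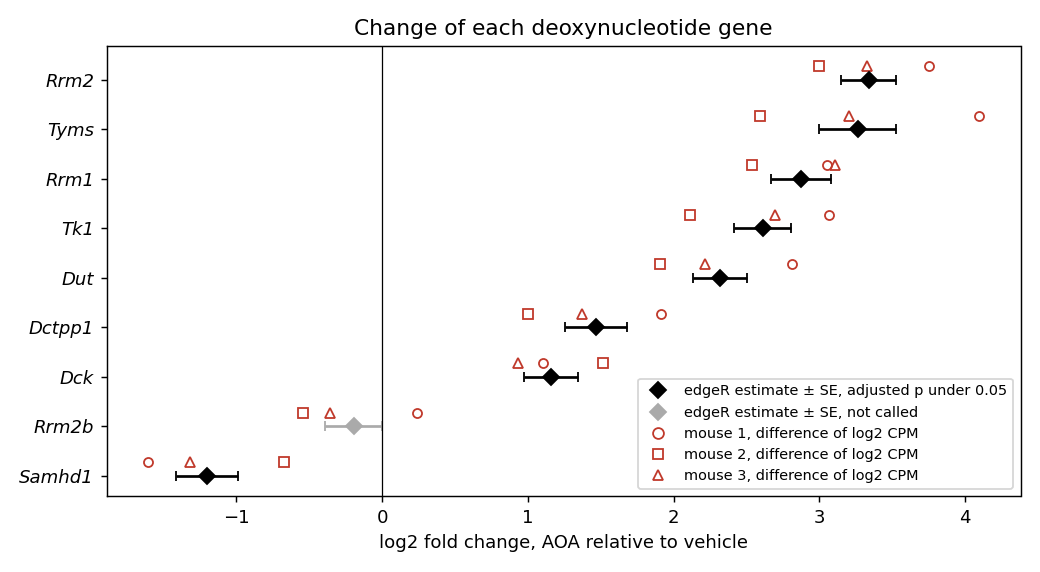
log2 fold change of AOA relative to vehicle for each of the 9 genes. Diamonds with bars are the edgeR estimate and its standard error, grey where the gene was not called, and open red symbols are the difference of log2 CPM in each mouse. Values run from 3.34 for Rrm2 to -1.20 for Samhd1, and Rrm2b is the gene whose 3 mice lie on both sides of 0.

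Samhd1 (Entrez gene 56045, chromosome 2 from 157097533 to 157135265, minus strand), which encodes the triphosphohydrolase that degrades deoxynucleoside triphosphates, was the gene of the 9 that fell. Its level was 1646, 1251 and 1870 CPM with vehicle and 541, 784 and 749 CPM with AOA. The lowest vehicle library, replicate 2, was 1.60 times the highest AOA library, which was also replicate 2. The log2 fold change was -1.20 (SE 0.21, 95% interval -1.68 to -0.72, edgeR adjusted p = 0.00151), and vehicle was 2.30-fold above AOA. The fall was present in all 3 mice, with differences of -1.61, -0.67 and -1.32 in log2 CPM.

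Samhd1 is also expressed by myeloid cells, and the summed level of their markers was lower with AOA too. Of 10 myeloid markers 6 were measured, and they summed to 79.0 to 112 CPM with vehicle and 6.02 to 10.7 CPM with AOA. Itgam and Itgax, which activated T cells and NK cells can express too, took most of the vehicle sum. Itgam fell from 45.4 ± 6.59 to 1.21 ± 0.801 CPM and Itgax from 36.3 ± 11.7 to 1.40 ± 0.714 CPM (SD, n = 3), log2 fold changes of -5.25 and -4.70. Cd68, a lysosomal protein of macrophages, fell from 14.4 ± 0.962 to 3.83 ± 0.605 CPM (SD, n = 3; log2 fold change -1.91, edgeR adjusted p = 1.10e-04). Mpeg1 was not called, at 0.607 ± 0.321 and 0.622 ± 0.212 CPM (edgeR adjusted p = 0.998). The defining marker Lyz2 was at 0, 0.317 and 0 CPM with vehicle and at 0.276, 1.16 and 0.101 CPM with AOA, so it did not follow the sum. Cd14, also too low to be tested, was at 0.271 to 1.03 CPM with vehicle and at 0 to 0.0529 CPM with AOA, in the direction of the sum. Csf1r, Adgre1, Fcgr1 and Flt3 were not analysed here. The part of these cells in the fall of Samhd1 was not tested.

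Samhd1 is responsive to interferon as well. Of 14 tested genes of the interferon response, 42.9% were called, against 53% of all tested genes, where 26.8% were called lower. In this list, AOA libraries had 6 genes called lower, 0 called higher and 8 not called, with a median log2 fold change of -0.69. Among those lower were Ifit1, Rsad2, Mx1, Irf7 and Ifih1, the last of them named after its value was seen. On the log2 scale they stood at -2.29 for Ifit1 (edgeR adjusted p = 0.00107), -2.18 for Rsad2, -2.07 for Mx1, -1.48 for Irf7 and -0.69 for Ifih1. The call of Ifih1 was lost without vehicle replicate 3, and the number called was 4 to 7 with each library left out. The part of this response in the fall of Samhd1 was not tested.

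Samhd1 took most of the counts of the 9 genes with vehicle but not with AOA. It took 84.0% (95% Wilson interval 83.6 to 84.5), 77.1% (76.6 to 77.6) and 84.1% (83.8 to 84.5) of their counts in vehicle replicates 1, 2 and 3. In AOA replicates 1, 2 and 3 it took 21.8% (21.4 to 22.1), 30.8% (30.4 to 31.3) and 28.3% (28.0 to 28.7). Its counts there were 11762, 14841 and 14847, against 11964, 11883 and 13369 for Rrm1. Samhd1 thus still had the most counts of the 9 in AOA replicates 2 and 3. Rrm1 and Rrm2 together took 5.31% to 10.2% with vehicle and 42.6% to 45.3% with AOA. Per kilobase, Samhd1 RNA was 11.8 to 23.7 times Rrm2 RNA in the vehicle libraries and 0.577 to 0.925 times in the AOA libraries. The order of these per-kilobase levels was thus exchanged for Rrm2. Rrm1 stayed below Samhd1 in AOA replicates 2 and 3, at 157 and 169 against 196 and 187 CPM per kilobase. In CPM, without length, Samhd1 stayed above Rrm2 in AOA replicates 1, 2 and 3, at log2 ratios of 0.09, 0.77 and 0.52. This log2 ratio changed by -4.56 between groups that were apart (exact permutation p = 0.1). The exact test was run on 5 ratios, each at p = 0.1, which the Benjamini-Hochberg adjustment leaves at 0.1.

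**Figure D3:**
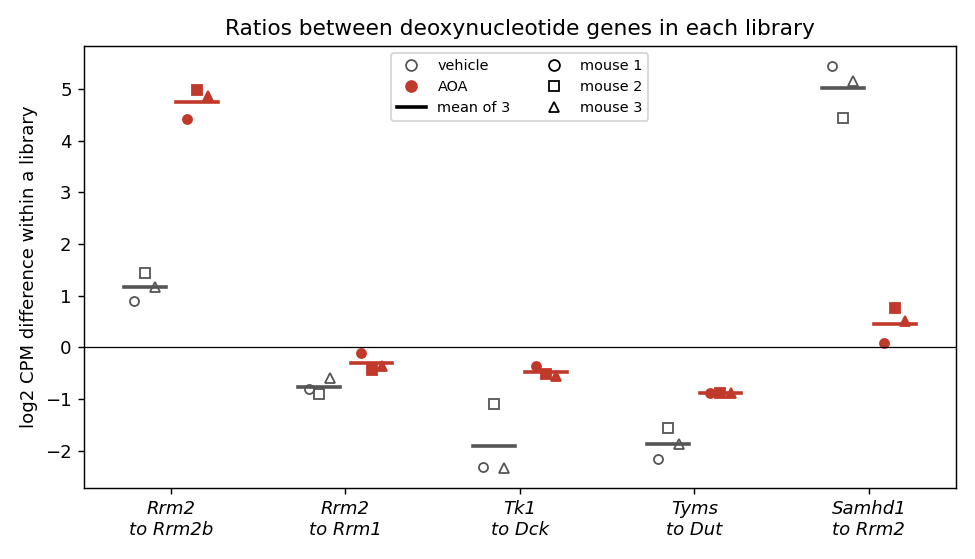
Difference of log2 CPM between pairs of genes within each library, with open grey symbols for vehicle, filled red symbols for AOA, a shape for each mouse and a bar for the mean of 3. The groups lie apart for all 5 pairs, and the mean for Samhd1 to Rrm2 goes from 5.01 with vehicle to 0.46 with AOA.

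Dctpp1 (Entrez gene 66422, chromosome 7 from 127256959 to 127260709, minus strand) encodes a pyrophosphatase that removes dCTP and modified forms of it from the pool. Its level was 15.5, 17.9 and 14.3 CPM with vehicle and 58.7, 35.8 and 37.1 CPM with AOA. AOA replicate 1 was 1.64 times the lowest AOA library, and all 3 were above the vehicle libraries. Its rise was 1.47 on the log2 scale (SE 0.21, edgeR adjusted p = 5.36e-04), or 2.76-fold. At 634 bases it is the shortest of the 9 genes in the deposited table. Without AOA replicate 1 the log2 fold change was 1.20, and it was also 1.20 with each library's trend with gene length removed, both called.

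Levels between genes were compared as CPM per kilobase of the deposited gene length (mean ± SD, n = 3). With vehicle, Samhd1 was highest at 396 ± 78.1, far above Dck at 31.6 ± 7.52. Dctpp1 at 25.0 ± 2.89, Rrm2 at 22.6 ± 4.76, Rrm1 at 21.1 ± 5.39, Tk1 at 18.6 ± 4.50 and Dut at 16.4 ± 2.42 followed. Neighbours in this run from Dck to Dut did not differ beyond their spread. Rrm2b, at 4.75 ± 0.321, and Tyms, at 3.03 ± 1.08, were last.

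With AOA, Rrm2 came first at 228 ± 14.9, followed by Samhd1 at 172 ± 32.8 and Rrm1 at 154 ± 15.7, and Samhd1 and Rrm1 overlapped within their spread. Then came Tk1 at 114 ± 15.9, Dut at 81.9 ± 16.6, Dck at 70.4 ± 4.94 and Dctpp1 at 69.2 ± 20.2, of which the last 3 did not differ beyond their spread. Tyms stood at 29.2 ± 5.97 and Rrm2b was last at 4.15 ± 1.04. The order depends on the length used, and with the length of GENCODE's principal transcript Dut was at 105 and Tk1 at 108 CPM per kilobase.

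The 9 genes did not vary in step within a group. AOA replicate 1 had the highest AOA level of 6 genes, among them Tyms, Tk1, Dut and Dctpp1, but the lowest of Rrm1 and Samhd1. Vehicle replicate 2 was the highest vehicle library for 6 genes and the lowest for Dck and Samhd1. The differences between vehicle and AOA within mouse 2, at 2.54 for Rrm1, 2.99 for Rrm2, 2.11 for Tk1, 1.90 for Dut and 1.00 for Dctpp1 in log2 CPM, were the smallest of the 3 mice for these genes. For Dck mouse 2 had the largest, at 1.52.

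Other genes of deoxynucleotide metabolism, listed by function, are set beside these 9. Of 31 tested, 21 were higher, 3 were lower and 7 were not called, with a median log2 fold change of 0.96. Among 10 genes of nucleotide synthesis, 9 were higher. Shmt1, which charges folate with a carbon unit from serine, rose by 2.13, or by 1.87 to 2.90 with each library left out. Its level was 10.9 ± 7.55 CPM with vehicle, where replicate 2 had 19.7 CPM. Dtymk, the kinase that follows thymidylate synthase and Tk1, rose by 1.67. Nme1, a nucleoside diphosphate kinase that can share reads with its close neighbour Nme2, rose by 1.89. Dctd, which deaminates dCMP to dUMP, rose by 1.18 (edgeR adjusted p = 0.0153), a call that was lost without vehicle replicate 1 or AOA replicate 1. Cmpk2, a mitochondrial pyrimidine nucleotide kinase, was the gene of this group not called (0.29, adjusted p = 0.289).

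Genes of mitochondrial salvage did not rise with Tk1 and Dck. Tk2, the mitochondrial thymidine kinase, fell from 42.9, 42.3 and 39.8 CPM to 18.3, 14.4 and 17.7 CPM, a difference of -1.31 on the log2 scale (SE 0.15, edgeR adjusted p = 1.39e-04). Its groups did not overlap, and it moved against Tk1. Dguok, the mitochondrial deoxyguanosine kinase, was at 32.3 ± 4.22 CPM with vehicle and 32.9 ± 9.55 CPM with AOA (SD, n = 3) and was not called (0.02, edgeR adjusted p = 0.931). Of the 7 genes of salvage and transport tested, 3 were higher, which were Ada, Pnp and Slc29a1, named after their values were seen.

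Among the 3 reductants that can restore ribonucleotide reductase, Txn1 and Txnrd1 of the thioredoxin system were higher, by 1.46 and 0.96 on the log2 scale, and were named after their values were seen. Glrx, which encodes glutaredoxin, was lower, at -0.93 (edgeR adjusted p = 0.00516). Of 11 genes of breakdown and pool cleaning, 7 were higher and 1 was lower. Dnph1, which hydrolyses deoxynucleoside monophosphates, and Nudt1, which removes oxidised purine triphosphates, rose by 2.14 and 1.88 (edgeR adjusted p = 0.00151 and 0.00143). Dnph1 was low with vehicle, at 13, 37 and 17 counts, and its rise was 1.91 to 2.74 with each library left out. Upp1, the uridine phosphorylase, fell from 4.77 ± 2.36 to 0.549 ± 0.122 CPM (SD, n = 3), a log2 fold change of -3.11 (edgeR adjusted p = 4.67e-04).

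**Figure D4:**
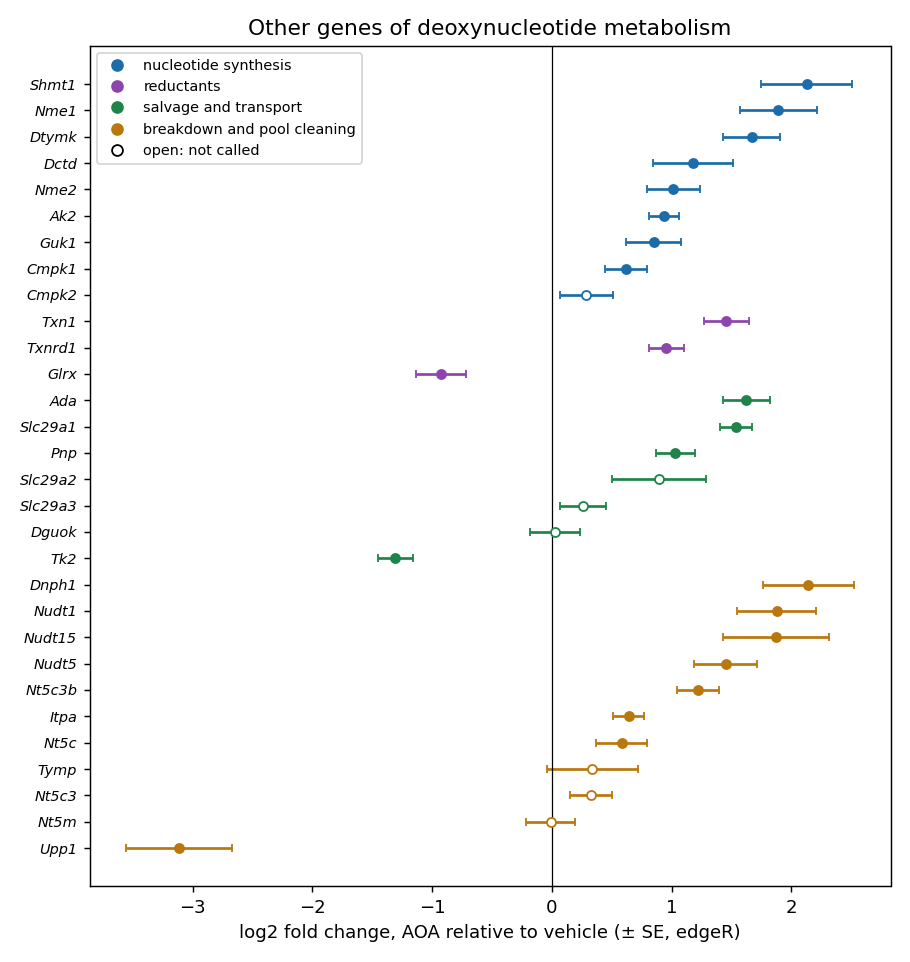
log2 fold change with its edgeR SE for 30 of the 31 other genes of deoxynucleotide metabolism, coloured by function, with open symbols for genes not called. Synthesis genes lie to the right of 0, while Tk2, Glrx and Upp1 are the filled symbols to the left.

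The 30 genes of the replication machinery were all higher, with log2 fold changes from 0.58 to 3.88 and a median of 2.23, although the call of the lowest, Cdt1, named after its value was seen, was lost without vehicle replicate 3 or any one AOA library. The estimates for Rrm2 and Tyms were above those of all of these but Cdc6, which loads the replicative helicase and was at 3.88. Cdc45, Gins1 and Mcm5, parts of that helicase, were above Rrm1 at 3.14, 3.11 and 2.97, and Top2a, which untangles DNA, was below it at 2.78. Dut stood below 14 of the 30, Dctpp1 below 22 and Dck below 26. These values are given side by side and the difference between the lists was not tested.

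Because Rrm2b is a known p53 target, 18 other p53 targets were examined. Of these 3 were higher (Aen, Bax and Pmaip1), 4 were lower (Bbc3, Btg2, Polk and Trp53inp1) and 11 were not called, with a median log2 fold change of 0.11. Cdkn1a, the p53-driven inhibitor of cyclin-dependent kinases, was 56.4, 217 and 73.2 CPM with vehicle and 81.3, 122 and 101 CPM with AOA, and was not called (-0.19, edgeR adjusted p = 0.733), with values of -0.50 to 0.68 as each library was left out, so its sign was not fixed. Bbc3 had the largest change, from 63.2 ± 16.5 to 18.3 ± 2.07 CPM (SD, n = 3), a log2 fold change of -1.79. The call of Polk was lost without AOA replicate 1, and that of Trp53inp1 without any one vehicle library or AOA replicate 2 or 3. The count rested on single libraries. It was 3 without vehicle replicate 1, vehicle replicate 3 or AOA replicate 1, 4 without AOA replicate 3 and 13 without vehicle replicate 2, and the number higher was 0, 0, 0, 1 and 10 in these cases. With the mouse as a replicate block 11 were called, 7 of them higher.

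**Figure D5:**
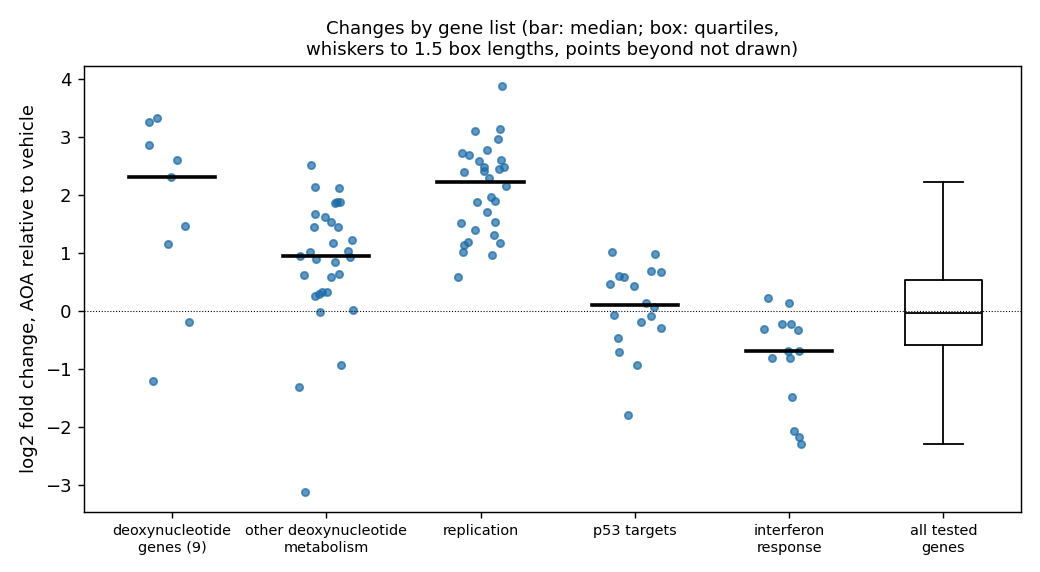
log2 fold change of each tested gene, 1 point per gene, in the 9 deoxynucleotide genes and the 4 other lists, with a bar at the median, beside a box for all tested genes. Medians are 2.32, 0.96, 2.23, 0.11 and -0.69 from left to right, against -0.02 for all tested genes.

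The genes most like Rrm2 were sought by Euclidean distance between log2 CPM profiles, centred on their own mean over the 6 libraries. They were Asf1b, a histone chaperone, at a distance of 0.21, Fignl1 at 0.34 and Cdca7 at 0.35, where the median of all other genes was 4.20. Their log2 fold changes were 3.22, 3.43 and 3.18. The genes most like Samhd1 were Iqsec1 at 0.14, Runx3, a transcription factor of CD8 T cells, at 0.21 and Pde3b, a phosphodiesterase, at 0.21, where the median was 1.75. Their log2 fold changes were -1.16, -1.29 and -1.25. With 6 libraries in 2 groups these distances mostly reflect the size of the difference between groups.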

How the data were processed

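The authors prepared stranded mRNA libraries, sequenced them as paired-end reads, mapped them with STAR, and deposited raw, unnormalised counts per gene from reads with a unique position, beside a gene length. The submitters' processing notes also name featureCounts and mm10, which is GRCm38. The annotation, and whether genes were filtered before deposit, were not given in the sources used here. In R 4.3.3, edgeR 4.0.16 was run with filterByExpr (minimum count 10), TMM normalisation and the robust quasi-likelihood test without the mouse, over 11759 genes, with Benjamini-Hochberg adjustment at 0.05. Standard errors are the log2 fold change divided by the root of the F statistic. CPM use TMM library sizes, and log2 CPM have a prior count of 2. Ratios had an exact permutation test. No set test was run. The steps were tested on simulated counts with a small share of genes changed, so changes in as many genes as here were not simulated.

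Alternatives were no filter on low counts or one of 10 CPM in 3 libraries, factors by median of ratios or by totals, DESeq2 1.42.0, voom of limma 3.58.1, a prior count of 0.5 for the ratios, the mouse as a replicate block, and each library left out. Removal of each library's trend with gene length and the GENCODE transcript length were chosen after seeing the data. The members and lists were chosen with earlier results of these data known. Named genes are the 9, up to 5 called genes per direction of each list, a few fixed by name, and the 3 nearest to Rrm2 and to Samhd1. Results of some genes that this rule takes are not reported here, though they stay in the list counts.

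Between replicates, counts differed beyond sampling noise (chi-square per gene of 10.2 to 72.3). The pairing comes from the labels, which give the same 3 mice to both groups. Across genes, deviations of a mouse's libraries from their group means correlated within mice 1, 2 and 3 at Pearson's r values of 0.0868, 0.189 and 0.194 (genes do not count as independent replicates). The cultures of a group came from separate mice. GENCODE vM21 gave gene positions, and RefSeq the promoter sequences.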

Additional observations from a re-analysis of the deposited data

How the results depend on the processing

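The calls of all 9 genes stayed on the same side of the threshold and kept their direction in each alternative, including the mouse as a replicate block, and with each library left out 8 were called, 7 higher and 1 lower. Their largest adjusted p in any alternative was 0.00730, for Samhd1, apart from Rrm2b, which was called in none. The mouse as a replicate block changed the call of 0 of the 9 genes. Size factors and the pairing of mice cannot move the mean change of a ratio within a library by their construction. These alternatives thus say nothing of the size of the 5 mean changes. Pairing does give their spread, as the SD of the differences within the 3 mice. It was 0.09 for Rrm2 to Rrm2b, 0.24 for Rrm2 to Rrm1 and 0.74 for Tk1 to Dck. For Tyms to Dut it was 0.30 and for Samhd1 to Rrm2 0.85, and no paired test of the ratios was run. With each library left out, the changes of the ratios in log2 ranged from 3.44 to 3.75 for Rrm2 to Rrm2b, from 0.36 to 0.55 for Rrm2 to Rrm1, from 1.24 to 1.85 for Tk1 to Dck, from 0.84 to 1.14 for Tyms to Dut and from -4.85 to -4.34 for Samhd1 to Rrm2.

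With each library left out, the number of p53 targets called ranged from 3 to 13 and of those higher from 0 to 10. With the mouse as a replicate block they were 11 and 7. limma called 5 as higher, and removal of the length trend with the replicate block also called 5. The cause was not tested. Counts of other lists stayed within 1.5 times, with 21 to 25 of the other deoxynucleotide genes, 29 to 30 replication genes and 4 to 7 interferon genes called with each library left out. At this depth 3 counts correspond to 0.136 to 0.233 CPM, so low genes such as Lyz2 and Upp1 rest on few counts.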
